A study of Homo sapiens with 6 samples.

Results

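CD82 and 8 other tetraspanin genes, CD9, CD63, CD81, CD151, TSPAN3, TSPAN4, TSPAN14 and TSPAN15, were followed in MDA-MB-231 cells with and without knockdown of CALR, the gene of the endoplasmic reticulum chaperone calreticulin. The 9 were taken by symbol from the 31582 genes of the deposited count table, and all 9 were found once. They were chosen by symbol with their expression values in this same knockdown against control comparison already known. Their levels and differences are therefore given as a description, without a test. MDA-MB-231 is an established cell line from a human breast carcinoma that lacks hormone receptors and HER2 amplification and has mesenchymal character. The knockdown group holds 3 libraries from cells carrying a short hairpin RNA against CALR (shCALR), and the control group holds 3 libraries from the cells named NTC. Cells of both groups grew in the same serum-containing medium and were harvested before confluence, and polyadenylated RNA was sequenced with a strand-specific kit. The labels name neither the hairpin sequence nor whether a group is 1 clone, and do not say whether its libraries came from separate cultures, so the spread between them may be partly technical.

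Tetraspanins are small proteins that cross the membrane several times and carry a large extracellular loop held by disulphide bonds. They bind integrins, immunoglobulin-superfamily proteins, proteases and each other, and so gather these partners into membrane patches that affect adhesion, migration, shedding of surface proteins and the release of extracellular vesicles. CD82, also called KAI1, is known as a suppressor of metastasis that is often low in invasive carcinoma, whereas CD151 is known for promoting migration through laminin-binding integrins.

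CALR itself was lower in all 3 knockdown libraries, at 493, 66.4 and 110 CPM (counts scaled to library size after correction by the trimmed mean of M values, TMM) against 1213, 979 and 926 CPM in the controls. Its log2 fold change was −2.22 ± 0.64 (SE, edgeR adjusted p = 0.209), and −3.55 without knockdown replicate 1. Library totals lay between 34639090 and 42425310 counts. Blood markers summed to at most 0.13 FPKM (fragments scaled to gene length and library size) in any library. The 5 mesenchymal markers summed to 1531 to 1845 FPKM in knockdown and 1156 to 1229 in control libraries. VIM alone was at 1177 ± 124 against 819 ± 26.2 FPKM (SD, n = 3), whereas AXL and CAV1 overlapped between the groups. The part of these markers in the differences below was not tested. All 6 luminal or epithelial markers together stayed between 5.55 and 8.46 FPKM in the knockdown libraries and between 6.62 and 7.35 in the controls. Knockdown replicates differed more from each other than controls did. The GC-richest genes, those in the upper quartile of GC content, had a median log2 CPM of 0.31 above their mean over the 6 libraries in knockdown replicate 3, 0.12 above it in replicate 1 and 0.21 below it in replicate 2 (a value of −0.21), while the controls lay between −0.13 and −0.01. In bulk RNA, fewer cells with a transcript and less of it per cell cannot be told apart.

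CD82 was higher in every knockdown library than in every control. The gene (ENSG00000085117.11) lies on chromosome 11 at 44564427 to 44620363 of GRCh38, on the plus strand. Knockdown replicates 1 to 3 had 7631, 5164 and 7285 counts of it, and control replicates 1 to 3 had 2413, 1426 and 1478. Scaled to library size, CD82 was at 218, 128 and 195 CPM with knockdown and 63.8, 39.2 and 33.9 CPM without. The groups did not overlap: the lowest knockdown library, replicate 2, lay above the highest control, replicate 1. Group means were 181 ± 46.7 and 45.6 ± 16 CPM (SD, n = 3). The log2 fold change was 1.98 ± 0.29 (SE), or 3.96-fold. Among the 12418 genes with a mean log2 CPM of at least 1, this value ranked 5 from the top, and among all 16394 genes tested it ranked 18. With 1 library left out in turn it lay between 1.81 and 2.31. No annotated gene shares exon bases with CD82 on its strand, and AC010768.1 on the other strand covers 6.91% of them.

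The stretch in front of the CD82 start site is shown because CD82 differed most of the 9 and the series title names HIF-1 and Wnt/beta-catenin, whose factors bind short DNA motifs. It is taken from the RefSeq promoter table (GRCh38.p14, 1 start at 44565663), which matched 6 of the 9 genes, all but CD81, CD151 and TSPAN3. The first 178 bases of the 250-base window before that start are printed, up to the next annotated CD82 exon base, at chr11:44565413-44565590 on the plus strand, with motif matches in capitals. In GENCODE 29 a CD82 transcript starts farther upstream, at 44564427, so the stretch lies within the annotated gene but in no exon of it.
CD82: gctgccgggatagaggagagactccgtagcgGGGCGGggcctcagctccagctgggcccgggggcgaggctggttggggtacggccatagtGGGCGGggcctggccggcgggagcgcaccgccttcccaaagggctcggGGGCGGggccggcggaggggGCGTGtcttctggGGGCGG
Both strands of the 250 bases before the start were searched, and no matches overlapped. The GC box GGGCGG occurred 4 times, and 42.6% of all 35116 promoter windows of that length hold at least 1. The hypoxia response core GCGTG occurred once, from 91 to 87 bases before the start (−91 to −87), and 32.2% of windows hold it. The letters ACGTG (18.5% of windows) and CTTTGAT, a TCF/LEF core (2.26%), did not occur in this window. GC content of the 250 bases was 77.2%, above 93.2% of windows. Windows of other members held the same letters. The GC box occurred 6 times in a window of CD9 and in one of TSPAN14, and 4 times in one of TSPAN4. GCGTG also occurred in windows of CD9, CD63, TSPAN4 and TSPAN15, but in none of TSPAN14. The share of all windows with 4 or more GC boxes was not counted. These matches describe letters only and were not related to binding or to the difference in CD82.

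**Figure D1:**
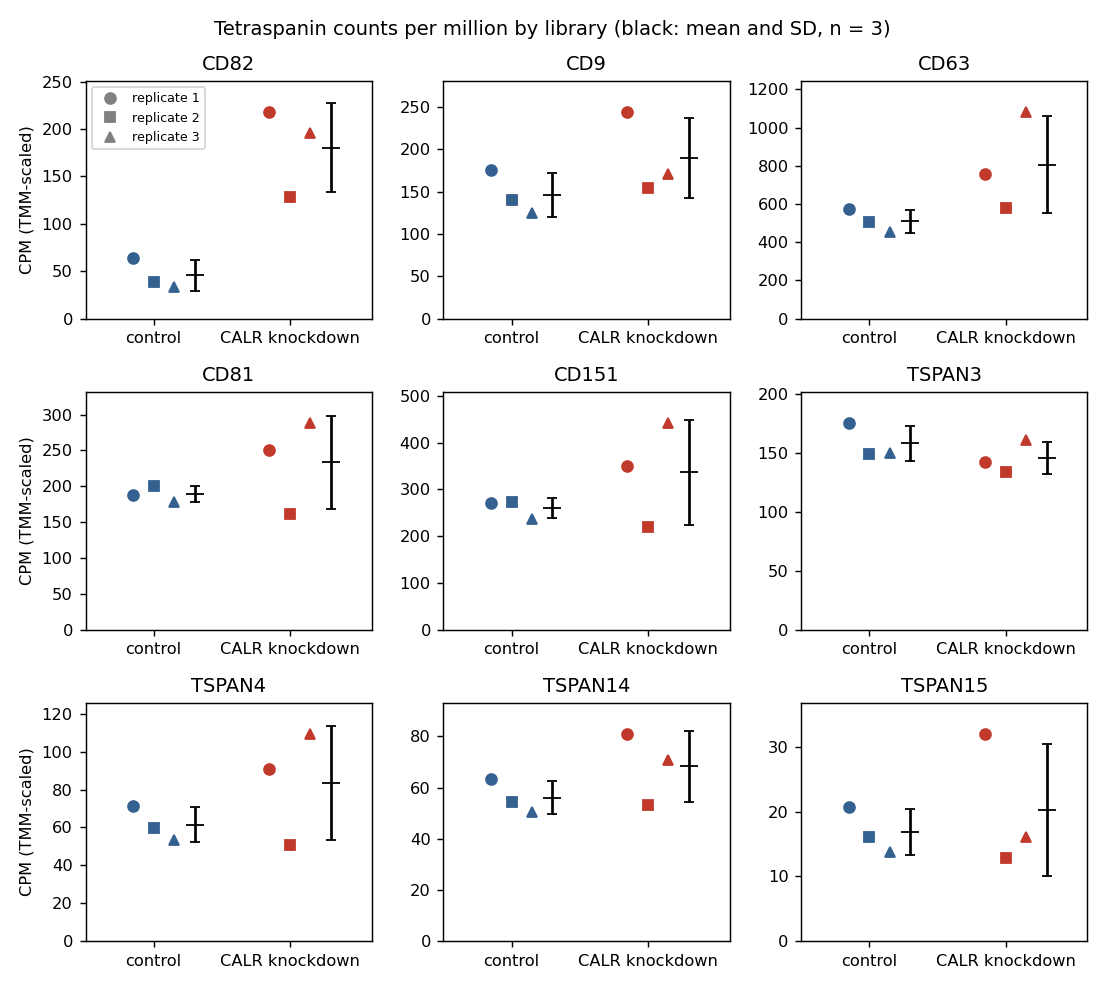
CPM on TMM-scaled library sizes (vertical axes, each from 0) of the 9 tetraspanin genes in 3 control (blue) and 3 CALR knockdown (red) libraries; marker shape gives the replicate number, and the black bar the mean and SD. CD82 is at 128 to 218 CPM in knockdown and 33.9 to 63.8 in control libraries, while most other panels overlap between the groups.

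CD82 also stood higher relative to each of the other 8 genes, a comparison within a library that does not depend on how libraries are scaled. The log2 ratio of CD82 counts to CD9 counts was −0.16, −0.27 and 0.19 for knockdown replicates 1 to 3, and for the controls −1.46, −1.84 and −1.88. Relative to TSPAN3 it was 0.62, −0.06 and 0.28 against −1.46, −1.93 and −2.14. The lowest knockdown ratio exceeded the highest control ratio for all 8 partners, by 0.70 (CD63) to 1.39 (TSPAN3) on the log2 scale. All 8 ratios share the CD82 counts, so they are not 8 separate observations. How often the same would hold with other genes in place of the 8 was not counted. Mean ratios differed between the groups by 1.38 for CD63, the smallest of the 8, to 2.12 for TSPAN3, the largest.

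Within the knockdown group, CD82 was not higher where less CALR was left. Knockdown replicate 1 kept 47.5% of the control mean of CALR and had 4.78 times the control mean of CD82. Replicate 2 kept 6.39% of CALR, the least, and also had the lowest CD82, at 2.81 times the control mean. Replicate 3 kept 10.6% of CALR with CD82 at 4.28 times. The 3 libraries thus stood in the order 1, 3, 2 for CD82, with replicate 1 highest and replicate 2 lowest for both genes. Between the groups, CALR was lower and CD82 higher with knockdown. An order of 3 libraries cannot settle whether the 2 genes are related within the group. The GC-richest genes were also lowest in replicate 2 (−0.21, against 0.12 in replicate 1 and 0.31 in replicate 3). The part of GC content in this order was not tested.

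**Figure D2:**
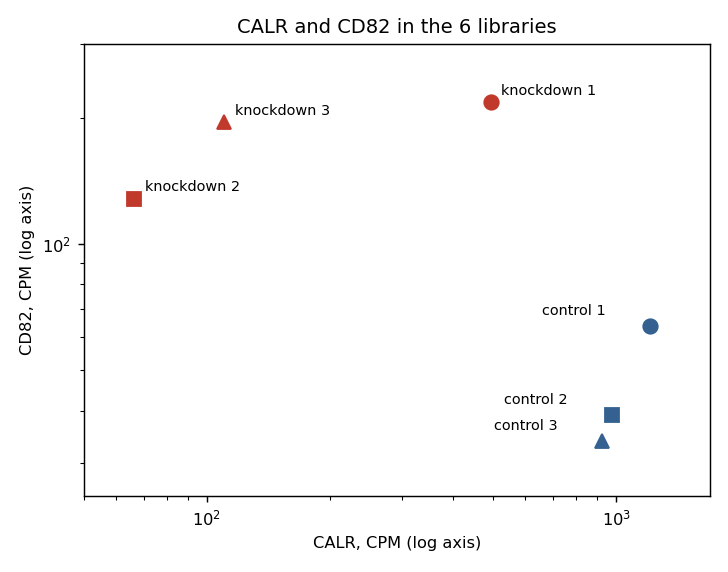
CD82 against CALR in CPM, both on log axes, 1 point per library (blue control, red CALR knockdown). The 3 knockdown libraries lie at 66.4 to 493 CPM of CALR with CD82 at 128 to 218 CPM, and knockdown replicate 1 is highest of them on both axes.

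The genes whose profile over the 6 libraries lay nearest to that of CD82 were found by the root mean square difference of mean-centred log2 CPM among the 12418 genes. They were RARRES2 (chemerin, an adipokine and chemoattractant) at 0.23, C15orf48 at 0.23, the sulphotransferase gene CHST4 at 0.31, the metalloprotease gene ADAM8 at 0.34 and PLAU, the urokinase plasminogen activator, at 0.34. RARRES2 was at 31.2, 20 and 25.7 CPM with knockdown, replicates 1 to 3, against 12.2, 7.08 and 6.90 CPM without. PLAU was at 346, 183 and 290 against 138, 91.2 and 89.0 CPM. Like CD82, both were lowest in replicate 2 of the knockdown libraries and highest in replicate 1 of the controls. Such likeness follows from how these genes were picked and is no separate result. Of the other members CD63 was the closest, 0.74 away and at rank 456 among these genes, followed by TSPAN4 (0.84, rank 1255) and CD9 (0.84, rank 1283), and TSPAN3 was the farthest (1.10, rank 6603).

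On the FPKM scale, which allows levels of different genes to be set side by side, CD63 was the most abundant of the 9 in every library and TSPAN14 the least. The last place of TSPAN14 depends on the gene length used for FPKM, which is not given in the sources used here. Before scaling to length, TSPAN14 was at a mean of 56.1 CPM in the controls and TSPAN15 at 16.9. In the controls CD63 was at 215 ± 19.9 FPKM, followed by CD151 (153 ± 10.0), CD81 (86.6 ± 5.0), CD9 (77.2 ± 11.6), TSPAN4 (31.3 ± 3.77), TSPAN3 (23.3 ± 1.57), CD82 (19.4 ± 6.22), TSPAN15 (9.67 ± 1.74) and TSPAN14 (3.28 ± 0.29; SD, n = 3 for each). Neighbours whose control ranges overlapped were CD81 and CD9, and TSPAN3 and CD82. All other neighbours were apart in all 3 controls. In the knockdown libraries CD82 was at 84.3, 54.4 and 71.5 FPKM, position 5 in each. It stood above TSPAN4 in all 3, where in all 3 controls it stood below TSPAN4. Its range there overlapped that of CD9, although CD9 was higher within each library.

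CD82 therefore took a larger share of the tetraspanin transcripts. It made up 9.75%, 8.55% and 7.47% of the summed FPKM of the 9 genes for knockdown replicates 1 to 3, and for the controls 3.97%, 2.69% and 2.62%. CD151 took 21.6%, 20.1% and 23.3% against 23.3%, 25.9% and 25.2%. CD63 took 37.6 ± 3.70% against 34.7 ± 0.55% (SD, n = 3), with ranges that overlapped. The sum without CD82 was 749 ± 155 FPKM in knockdown and 600 ± 45.3 in control libraries, and knockdown replicate 2, at 582, lay inside the control range of 551 to 640. The 9 genes held 87.9% to 92.2% of the summed FPKM of the 30 tetraspanin genes measured.

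**Figure D3:**
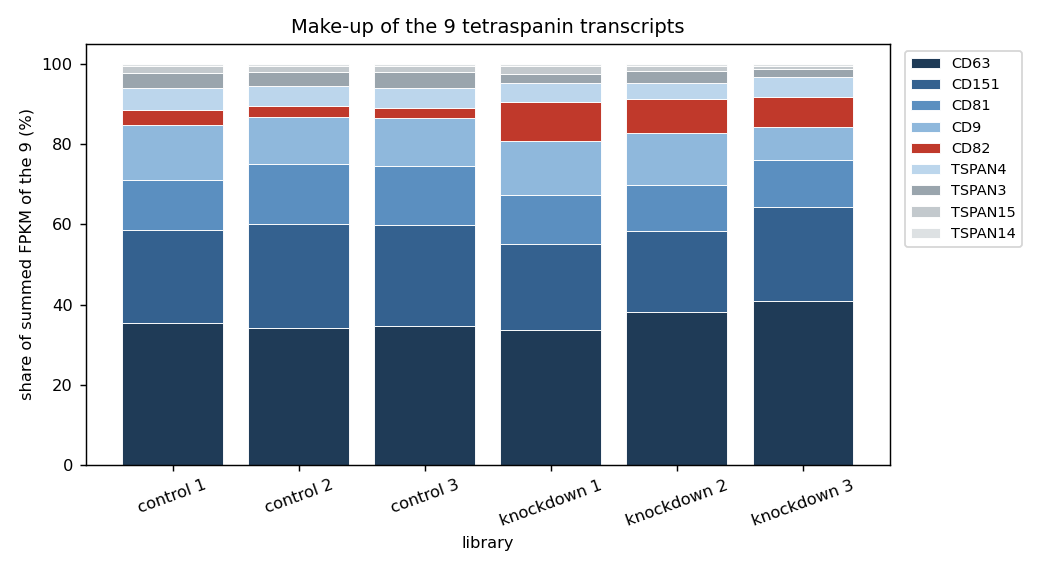
Share of each gene in the summed FPKM of the 9 tetraspanins (vertical axis, percent), 1 bar per library, 3 controls on the left and 3 CALR knockdown libraries on the right. The red segment, CD82, is 2.62% to 3.97% of the sum in controls and 7.47% to 9.75% in knockdown libraries.

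CD63, CD9 and CD81 are the tetraspanins most used as markers of extracellular vesicles, and CD63 also marks late endosomes and lysosomes. CD63 (ENSG00000135404.11, chromosome 12 at 55725323 to 55729707, minus strand) was at 759, 578 and 1081 CPM in knockdown and 573, 503 and 452 CPM in control libraries. The groups were apart only narrowly, since knockdown replicate 2 and control replicate 1 were at 578 and 573 CPM. Its log2 fold change was 0.66 ± 0.24 (SE), and 0.41 without knockdown replicate 3 or 0.86 without replicate 2. AC009779.2 on the other strand covers 9.0% of its exon bases. CD82 and CD63 were the 2 of the 9 whose groups did not overlap, beside 22.5% of all 16394 genes tested.

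CD9 (ENSG00000010278.11, chromosome 12 at 6199715 to 6238271, plus strand), which binds integrins and the EWI immunoglobulin proteins, was at 244, 155 and 171 CPM in knockdown and 175, 140 and 124 CPM in control libraries. Knockdown replicates 2 and 3 lay below control replicate 1. The log2 fold change of CD9 was 0.37 ± 0.22, and 0.16 without knockdown replicate 1. CD81 (ENSG00000110651.11, chromosome 11 at 2376177 to 2397419, plus strand), an entry receptor for hepatitis C virus on liver cells, was at 251, 162 and 288 CPM against 188, 200 and 178 CPM. Replicate 2 was the lowest of all 6 libraries and replicate 3 the highest. The log2 fold change of CD81 was 0.31 ± 0.22, and 0.15 without replicate 3 or 0.52 without replicate 2.

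CD151 and TSPAN4 lie 2976 bases apart on the plus strand of chromosome 11, CD151 (ENSG00000177697.17) at 832843 to 839831 and TSPAN4 (ENSG00000214063.10) at 842808 to 867116. CD151 holds the laminin-binding integrins in tetraspanin complexes, and TSPAN4 is known from migrasomes, vesicle-bearing structures left behind by migrating cells. CD151 was at 349, 219 and 442 CPM in knockdown and 271, 273 and 236 CPM in control libraries, a log2 fold change of 0.37 ± 0.24. TSPAN4 was at 90.7, 50.6 and 109 CPM against 71.3, 59.9 and 53.3 CPM, a log2 fold change of 0.44 ± 0.27. In both genes knockdown replicates 1 and 3 lay above every control and replicate 2 below every control. Without replicate 3 the log2 fold changes were 0.14 for CD151 and 0.22 for TSPAN4, and without replicate 2 they were 0.61 and 0.70. Genes on the other strand, AP006621.1 and POLR2L, cover 7.57% of the exon bases of CD151.

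TSPAN3 (ENSG00000140391.14, chromosome 15 at 77041404 to 77083984, minus strand) was the only one of the 9 with a negative log2 fold change, −0.12 ± 0.16, smaller than its standard error. It was at 142, 134 and 161 CPM in knockdown and 175, 149 and 150 CPM in control libraries, and the groups overlapped through knockdown replicate 3. On the FPKM scale the groups were apart, at 19.0, 19.7 and 20.4 against 25.1, 22.2 and 22.7 FPKM. Of the 12343 genes compared on log2(FPKM + 1), 21.3% were apart, and their median log2 fold change was −0.08. The sign was negative under all 17 alternative settings, and with library size alone the log2 fold change was −0.26, where the median of all genes moved to −0.13.

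TSPAN14 and TSPAN15 belong to the TspanC8 group, which escorts the protease ADAM10 from the endoplasmic reticulum and affects which substrates it cuts. TSPAN14 (ENSG00000108219.14, chromosome 10 at 80454166 to 80533123, plus strand) was at 80.8, 53.3 and 70.9 CPM in knockdown and 63.2, 54.4 and 50.6 CPM in control libraries, a log2 fold change of 0.29 ± 0.20. Its lowest knockdown library, replicate 2, lay among the controls, and the value was 0.15 without replicate 1 and 0.44 without replicate 2. TSPAN15 (ENSG00000099282.9, chromosome 10 at 69451473 to 69507669, plus strand) was at 32.0, 12.8 and 16.1 CPM against 20.7, 16 and 13.8 CPM. Its log2 fold change of 0.27 ± 0.34 rested on knockdown replicate 1 and turned to −0.22 without it. TSPAN15 also varied most among the knockdown libraries, with a coefficient of variation of 49.1% in FPKM, against 3.45% for TSPAN3, the least variable.

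**Figure D4:**
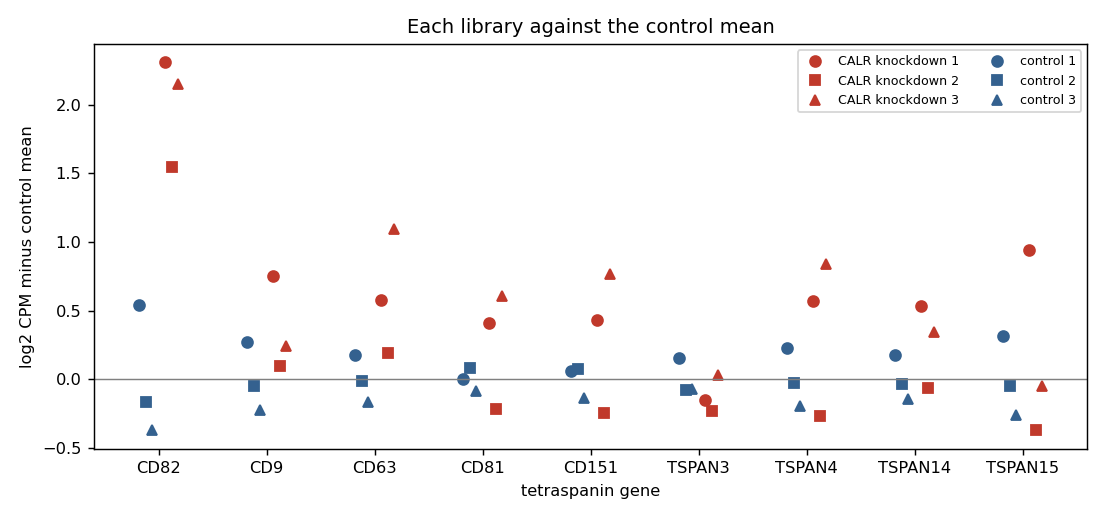
Difference of each library's log2 CPM from the control mean (vertical axis) for the 9 tetraspanin genes (horizontal axis); blue marks controls, red marks CALR knockdown libraries, and shape gives the replicate. The red points of CD82 lie from 1.55 to 2.31 above the control mean. For CD81, CD151, TSPAN3, TSPAN4, TSPAN14 and TSPAN15 knockdown replicate 2 (square) lies below the control mean.

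Of the 4 members richest in GC, 3 had the same order of knockdown libraries as GC-rich genes as a whole, and CD82 had another. TSPAN4, CD151 and CD81, whose median transcript GC contents of 64.3%, 62.6% and 59.4% exceed those of 95.5%, 91.9% and 82.8% of tested genes, were each highest in knockdown replicate 3 and lowest in replicate 2. CD82, at 59.6% GC, was highest in replicate 1, as were TSPAN14 and TSPAN15. The part of GC content in these differences beyond the adjustment that follows was not tested. With each library's trend with GC content removed, the log2 fold changes were 0.28 ± 0.18 for TSPAN4, 0.21 ± 0.15 for CD151, 0.14 ± 0.14 for CD81 and 0.15 ± 0.15 for TSPAN14. CD82 stayed at 1.83 ± 0.24 and CD63 at 0.53 ± 0.18 (SE). These 2 of the 9 had groups apart, where 25% of all genes tested had. CD9, near the median GC content, was at 0.36 ± 0.20. TSPAN15 was at 0.12 ± 0.31. Without knockdown replicate 2, groups were apart for 6 of the 9 (CD82, CD63, CD81, CD151, TSPAN4 and TSPAN14), where 52.3% of all genes were.

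Of the 24 other tetraspanin genes, 16 could be tested, 5 were too low and TSPAN11, CD37 and TSPAN32 were not analysed here. The 5 under the count filter, TSPAN16, TSPAN18, UPK1A, UPK1B and PRPH2, which include uroplakins and a photoreceptor gene, had at most 5 counts in any library. Of the 16 tested, 0 passed the adjusted threshold of 0.05 in edgeR's quasi-likelihood test, and neither did any other gene (0% of 16394, smallest adjusted p 0.115; 2546 were under 0.05 unadjusted). DESeq2 called 530 genes, TSPAN1 and TSPAN13 among the 16. With p not adjusted and under 0.05, knockdown was higher for 2 and lower for 3, where 8.17% of all genes tested were higher and 7.36% lower by that rule, 15.5% in all. Their median log2 fold change was 0.04, and that of all genes −0.0007.

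Those 5 went in both directions. TSPAN1 was at 27.5, 12.4 and 15.1 CPM in knockdown and 10.2, 7.14 and 6.03 CPM in control libraries, a log2 fold change of 1.24 ± 0.34 (SE, edgeR adjusted p = 0.200). TSPAN9, a tetraspanin known from platelets, was at 25.5, 15.6 and 14.2 against 10.2, 11.9 and 9.74 CPM (0.79 ± 0.26, edgeR adjusted p = 0.227). For both genes knockdown replicate 1 was highest, and without it the log2 fold changes were 0.82 and 0.49. TSPAN13 was at 6.46, 9.64 and 8.24 against 18.2, 17.9 and 16 CPM (−1.10 ± 0.22, edgeR adjusted p = 0.149), with all knockdown libraries below all controls and values of −1.24 to −0.96 with 1 library left out. TSPAN33, of the TspanC8 group, was low, at 0.43, 0.75 and 1.58 against 2.17, 2.58 and 2.09 CPM (−1.30 ± 0.45, edgeR adjusted p = 0.248), and −1.93 without knockdown replicate 3. TSPAN19 was lower still, at means of 0.671 and 1.31 CPM (−0.96 ± 0.36), and with the GC trend removed it was at −0.53 with an unadjusted p of 0.211 in edgeR.

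The most abundant of the other family members were TSPAN17 (21.8 ± 3.42 FPKM in controls), TSPAN5 (15.6 ± 0.125) and TSPAN8 (8.38 ± 2.03; SD, n = 3), the first 2 of which belong with TSPAN14, TSPAN15 and TSPAN33 to the TspanC8 group. Their log2 fold changes were 0.41 ± 0.22 for TSPAN17, 0.14 ± 0.23 for TSPAN5 and −0.69 ± 0.33 for TSPAN8 (SE). Without knockdown replicate 1 the values for TSPAN5 and TSPAN8 were −0.13 and −1.08, without knockdown replicate 3 that for TSPAN17 was 0.19, and without control replicate 1 that for TSPAN8 was −0.44. CD53, a tetraspanin of blood cells, stayed under 0.4 CPM in every library.

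**Figure D5:**
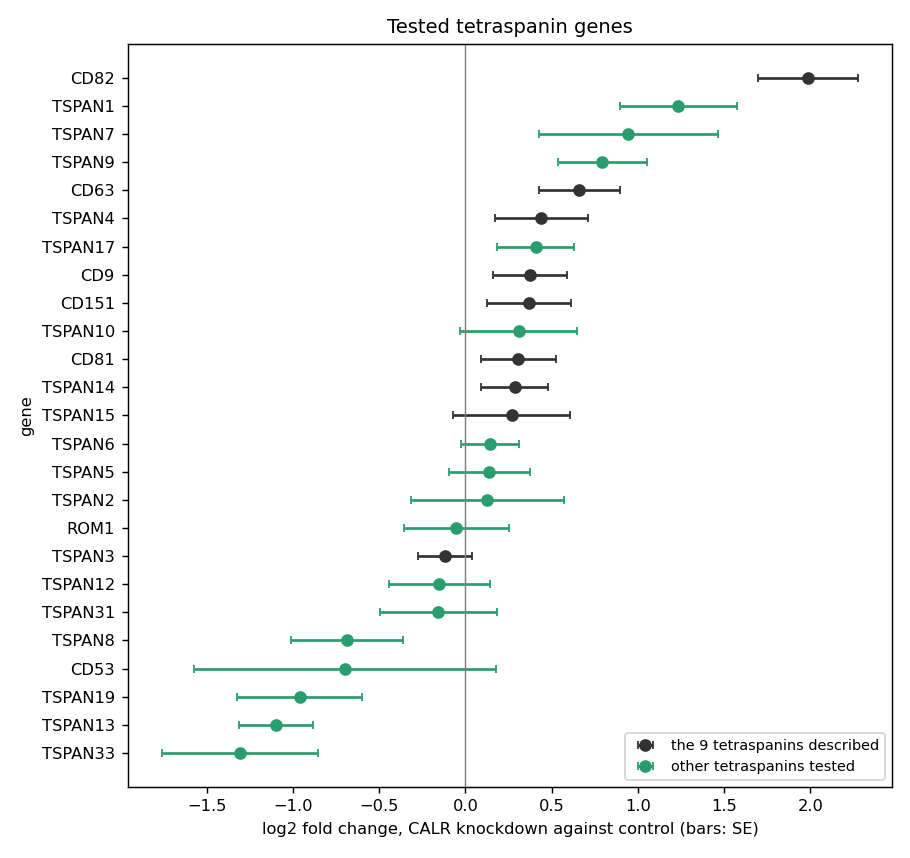
Log2 fold change of CALR knockdown against control (horizontal axis, bars are SE) for the 25 tetraspanin genes tested; black points are the 9 genes described in detail and green points the 16 others. CD82 lies farthest to the right at 1.98 and TSPAN33 farthest to the left at −1.30.

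Genes whose proteins work with the tetraspanins were counted from lists. Of 18 tested partners, 0 passed the adjusted threshold. By the unadjusted rule 1 was higher and 2 were lower, beside 8.17% and 7.36% of all genes tested, and the median log2 fold change of the 18 was 0.10. The higher one was MMP14, a membrane-bound metalloprotease, at 855, 550 and 1140 CPM in knockdown against 365, 369 and 366 CPM in control libraries (1.21 ± 0.25, edgeR adjusted p = 0.149). The lower ones were EGFR, the epidermal growth factor receptor, at 99.5, 128 and 108 against 220, 180 and 202 CPM (−0.84 ± 0.17, edgeR adjusted p = 0.149), and IGSF3, low at means of 1.12 and 2.45 CPM (−1.13 ± 0.48, and −0.71 without control replicate 1). All knockdown libraries lay above all controls for MMP14 and below them for EGFR. The integrin genes ITGA3, ITGA6 and ITGB1 did not pass that value: ITGA3 was at 826 ± 343 against 534 ± 175 CPM, ITGA6 at 165 ± 46.1 against 134 ± 39.0 and ITGB1 at 845 ± 112 against 786 ± 99.1 (SD, n = 3). ITGB4, another integrin gene of the list, did not pass it either, at 11.6 ± 13.9 against 5.73 ± 4.0 CPM. Its log2 fold change of 1.02 turned to −0.66 without knockdown replicate 1.

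ADAM10, the partner of TSPAN14 and TSPAN15, was at 59.4, 76.9 and 40.4 CPM in knockdown and 98.8, 66.3 and 73.8 CPM in control libraries, with overlapping groups. Of the 7 genes of ADAM10 and its substrates, 1 was past an unadjusted p of 0.05, beside 15.5% of all genes tested. It was BTC (betacellulin, an EGF receptor ligand), at 4.80, 4.72 and 4.45 against 3.60, 2.50 and 2.89 CPM (0.64 ± 0.25). The median over the list, which shares ADAM10 and CD44 with the partners, was 0.18 on the log2 scale. Of 19 tested vesicle and late endosome genes, 1 was higher and 1 lower at that value, beside 8.17% and 7.36% of all genes tested, with a median of 0.07. SDC1, syndecan-1, was at 80.4, 56.7 and 62.2 against 54.4, 39.2 and 34.7 CPM (0.64 ± 0.22). RAB27B, a small GTPase of vesicle docking and release, was at 38.3, 44.6 and 35.4 against 59.5, 51.2 and 61.7 CPM (−0.54 ± 0.17).

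Among 11 genes reported in the literature to control CD82, 3 were higher and 0 lower by the unadjusted rule, beside 8.17% and 7.36% of all genes tested, and 0 passed the adjusted threshold. The median log2 fold change was 0.21. KAT5, the acetyltransferase TIP60, was at 75.2, 57 and 100 CPM in knockdown and 44.1, 51.4 and 47.2 CPM in control libraries (0.70 ± 0.22, edgeR adjusted p = 0.219). RUVBL2, the ATPase reptin, was at 220, 167 and 243 against 164, 161 and 138 CPM (0.45 ± 0.18), and CTNNB1, beta-catenin, at 318, 308 and 325 against 230, 246 and 251 CPM (0.39 ± 0.14). KAT5 is described as a coactivator and reptin with beta-catenin as a corepressor at the CD82 gene, so this list holds members of opposite roles.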

How the data were processed

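The authors' deposited table of read counts per gene and their deposited FPKM table, rounded to 2 decimals, were used. Per the submitters' processing notes, TopHat2, FastQC 0.9.5 and GRCh38 were used. Which program counted reads, with which strand setting and annotation, is not given in the sources used here. Groups came from the sample titles, with 3 libraries each. Counts were filtered with filterByExpr in edgeR 4.0.16 (R 4.3.3), which left 16394 genes, scaled by TMM and compared with the quasi-likelihood test, adjusting by Benjamini-Hochberg over all genes. Each standard error was derived from the quasi-likelihood F (size of the log2 fold change over its square root), and log2 CPM values have a prior count of 2. The steps were tested on simulated data. GC content is the median over GENCODE 29 transcripts, and 99.4% of tested genes had a value; its trend was removed per library by loess (span 0.5). Coordinates are from GENCODE 29, counted from 1. Depth limits low genes such as CD53. The p-values weigh the difference between groups against the spread between these libraries, which may be partly technical.

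The 9 genes and the lists were chosen with earlier results of these data known. Named were the 9, CALR, the other tetraspanins tested that were at an unadjusted p under 0.05 or among the 3 highest in FPKM, up to 4 members of each list under that p, and the 5 nearest profiles to CD82. ITGA3, ITGA6, ITGB1, ITGB4, ADAM10 and CD53 were named after their values were seen. Alternatives were DESeq2 1.42.0 and its size factors, library size alone, limma-voom (limma 3.58.1), other filters, each library left out, a replicate block, limma on log2(FPKM + 1) or log2(FPKM + 0.1), and the GC trend removed.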

Additional observations from a re-analysis of the deposited data

How the results depend on the processing

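The log2 fold change of CD82 lay between 1.81 and 2.31 over all 17 alternatives, and those of CD9, CD63, CD81, CD151, TSPAN4, TSPAN14 and TSPAN3 kept their sign in all 17. TSPAN15 kept it in 16. With 1 library left out, the ranges were 0.16 to 0.53 for CD9, 0.41 to 0.86 for CD63, 0.15 to 0.52 for CD81, 0.14 to 0.61 for CD151, −0.18 to −0.04 for TSPAN3, 0.22 to 0.70 for TSPAN4, 0.15 to 0.44 for TSPAN14 and −0.22 to 0.52 for TSPAN15. TSPAN3 was at −0.26 with library size alone, which moved the median of all genes to −0.13. On log2(FPKM + 0.1) that median was −0.11. The count of the 9 whose groups did not overlap was 1 when all 6 libraries had to reach a CPM of 1, where CD63 overlapped. Of all genes tested under that filter, 22.1% were apart. With 1 library left out the count was 2 to 6, where 25.4% to 52.3% of all genes were apart. Both the 6 and the 52.3% came without knockdown replicate 2.

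Genes past the adjusted threshold numbered 0 with edgeR (2546 at an unadjusted p under 0.05) and 0 with limma-voom, but 530 with DESeq2 and 988 with no low-count filter. With the GC trend removed there were 4 (ADAMTS6, GBP1, GFPT2 and ME1). On log2(FPKM + 1) with no filter there were 5 (MIR3671, MIR6812, RNU6-39P, RP11-242D8.2 and Y_RNA). With 1 library left out the count was 0 to 2604, the highest without knockdown replicate 2 and 138 without knockdown replicate 3. Of the other tetraspanins, DESeq2 gave 2 (TSPAN1 and TSPAN13), no low-count filter 3 (also TSPAN33), and leaving out 1 library 0 to 3. At an unadjusted p under 0.05 there were 10 with no filter and 3 under that CPM filter. Of the listed partner, vesicle and regulator genes, 9 were at an unadjusted p under 0.05, beside 15.5% of the 16394 tested. They numbered 14 with the GC trend removed and 4 to 26 with 1 library left out. For the alternatives, the transcriptome-wide share by that unadjusted rule is not given here. Of the same listed genes, 2 passed the adjusted threshold with DESeq2 (EGFR and MMP14), 5 with no low-count filter and 0 to 10 with 1 library left out. The highest left-out counts, 3 other tetraspanins and 26 and 10 listed genes, all came without knockdown replicate 2. There 2604 of 16783 genes passed the adjusted threshold, so these counts do not set the lists apart from other genes. The causes were not tested.

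The labels do not say whether libraries of the same number were paired. Deviations of same-numbered libraries correlated at 0.20, −0.12 and −0.22, which cannot settle this with 3 libraries per group. With the replicate block, 0 genes passed, CD82 was at 2.0, and the 9 listed genes at an unadjusted p under 0.05 became 6.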
